A study of Mus musculus with 19 samples.

Results

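The 9 genes described here build or seal the fluid-filled cavity of the mouse blastocyst. They are the water and glycerol channels *Aqp3* and *Aqp9*, the sodium pump subunit *Atp1b1*, the claudins *Cldn4*, *Cldn6* and *Cldn7*, the tight junction genes *Ocln* and *Tjp1*, and *Cdh1*, which encodes E-cadherin. They were chosen by name for their part in cavity formation and matched by symbol to the 41388 genes of the count table, of which 17137 had enough counts to be tested. All 9 were among those tested, with between 47 and 2259 counts in every embryo.

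The outer cells of the early mouse embryo become an epithelium, the trophectoderm, which pumps fluid into a cavity and holds it there. The sodium pump, of which ATP1B1 is the beta subunit, moves sodium across the basolateral membrane, water follows through aquaporins, and claudins, occludin and the scaffold ZO-1 close the gaps between cells at tight junctions. E-cadherin adhesion comes first, at compaction, and is needed for the epithelium to form.

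RNA of single whole blastocysts was sequenced, with 8 *Upf2*-null embryos (*Upf2* -/-) and 11 control embryos (*Upf2* +/+). UPF2 is a core factor of nonsense-mediated RNA decay (NMD), which clears mRNAs with a stop codon in an aberrant position. The null allele lacks exons 2 and 3, removed from a floxed gene by Cre recombinase under the E2a promoter to found the heterozygous mice, and the truncated protein lacks NMD activity. Embryos were littermates from crosses of heterozygous mice, taken as zygotes from superovulated females aged 4 to 8 weeks and cultured in M16 medium to the early blastocyst stage (E3.25), 90 to 94 h after hCG, and UPF2 protein carried over from the oocyte was not measured here.

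The libraries held 4068350 to 5993745 counts in *Upf2*-null embryos, against 4056072 to 5854659 in controls, and detected 15547 to 16906 genes in *Upf2*-null embryos, against 14522 to 17084 in controls. *Upf2* itself ranged from 64.3 to 123 CPM over the *Upf2*-null embryos, against 37.2 to 87.8 CPM over the controls, but its counts take in all exons and are no check of the genotypes. *Upf2*-null embryo 2 and control embryo 5 stood apart from the other embryos in several of the 9 genes. Fold changes and correlations among the 9 genes that rest on them are given with and without them. Levels are given in CPM, the count of a gene divided by the library size after trimmed-mean (TMM) normalization.

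The start sites of the genes were searched for CACCTG on both strands. This sequence is bound by zinc finger factors of the Snail and Zeb families, which act on epithelial genes such as *Cdh1*. Of the 9 genes, 8 had at least 1 window in the RefSeq promoter table (GRCm38.p6; 250 bases before to 50 after each start), and *Cdh1* is named only. The motif was in 6 of their 11 windows, from 5 genes, and in 20.2% of all 32851 windows of the table. No window of *Aqp9*, *Atp1b1* or *Tjp1* held it. The windows below are 30 bases on the strand of the gene, 5′ to 3′, with the match in capitals (CAGGTG where it lies on the other strand), and are shown because they hold the motif nearest to the start site for each of these genes.
Aqp3: gtataaagggcgcCACCTGcgctccgggcc
Cldn4: ggagctttaactgcagCACCTGtggccgcc
Cldn6: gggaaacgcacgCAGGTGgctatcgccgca
Cldn7: agacttccggttCAGGTGagtgtcccttca
Ocln: ctaggggctcggCAGGTGggtcccagcgca

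They lie at chr4:41098184-41098213 (minus strand, match 17 bases before the RefSeq start) for *Aqp3*, chr5:134946935-134946964 (minus, 14 bases) for *Cldn4*, chr17:23679260-23679289 (plus, 93 bases) for *Cldn6*, chr11:69965352-69965381 (plus, 57 bases) for *Cldn7* and chr13:100552549-100552578 (minus, 68 bases) for *Ocln*. The *Aqp3* and *Cldn4* windows end at the base before the gene in GENCODE M21, while those of *Cldn6*, *Cldn7* and *Ocln* lie inside the GENCODE gene bounds, downstream of an earlier annotated start. A match of 6 letters is a description of the sequence and not a binding site. Of the factors themselves, *Zeb1* had 1 count over all *Upf2*-null embryos, against 42 over all controls, and *Snai1* had 51 counts over the *Upf2*-null embryos, against 84 over the controls. These are raw sums over 8 *Upf2*-null and 11 control embryos, not scaled for the number of embryos. In *Zeb1* the control median was 0 CPM, and 4 controls were above every *Upf2*-null embryo. *Snai2* and *Zeb2* had at most 6 counts over the embryos of either genotype.

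Between genotypes, the water channel *Aqp3* had the largest difference of the 9 genes, with means of 115 CPM for *Upf2*-null embryos and 209 CPM for controls, followed by *Ocln* and *Cldn4*. In edgeR's quasi-likelihood fit, with p-values adjusted by Benjamini-Hochberg over all 17137 genes and a threshold of 0.1, 0 of the 9 genes passed, beside 33 (0.193%) of all genes tested, of which 30 were higher and 3 (0.0175%) lower. DESeq2 and limma voom also called 0 of the 9. At an unadjusted p under 0.05, 2 of the 9 were lower in *Upf2*-null embryos, *Aqp3* and *Cldn7*, and 0 were higher. Over all genes tested, 7.38% were lower and 5.15% higher at that level. The fitted difference was below 0 in 8 of the 9 genes, beside 52.3% of all genes tested, and its median was -0.28 on the log2 scale, beside -0.02 for all genes. The 9 genes covaried between embryos, so their signs are not independent of each other. Of the 8 below 0, *Aqp9*, *Tjp1* and *Cdh1* changed sign in other settings of the fit. Since each library holds a whole embryo, fewer trophectoderm cells and less RNA per cell cannot be told apart in any of these values.

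**Figure D1:**
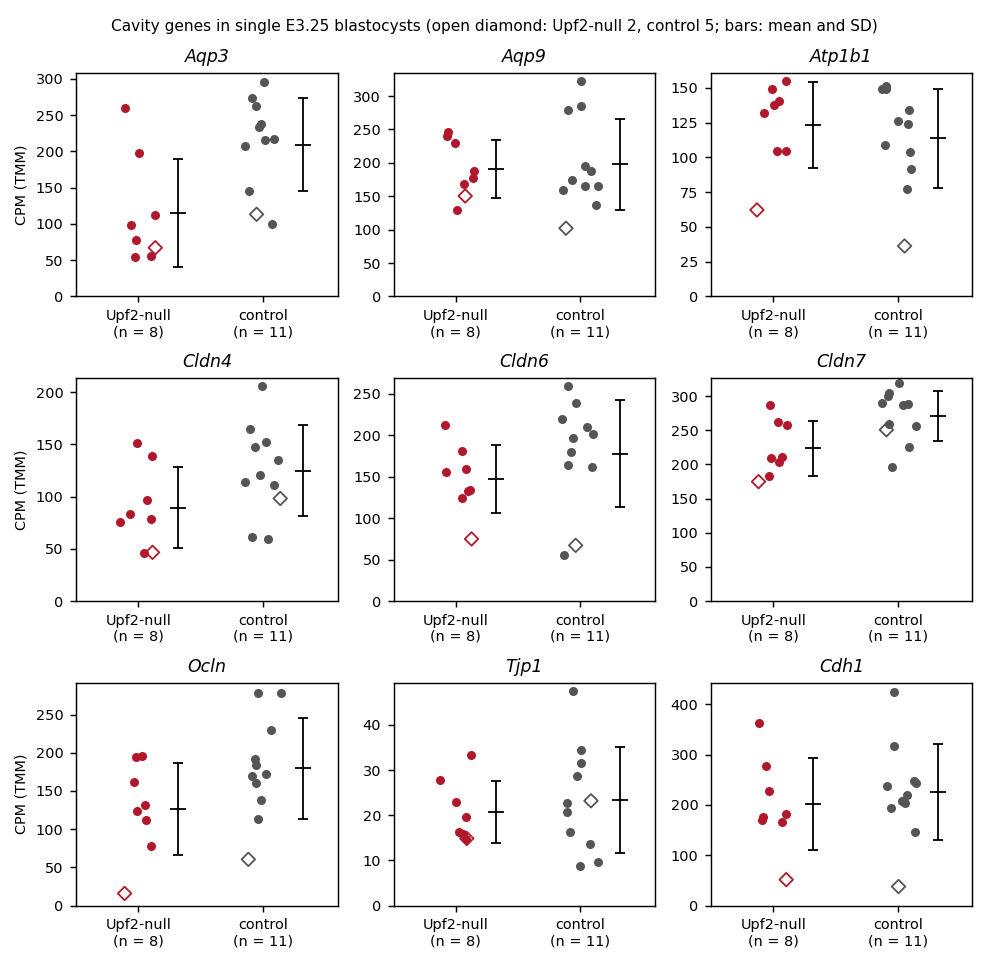
CPM (TMM-normalized) of each of the 9 genes in single blastocysts, *Upf2*-null at the left (n = 8) and control at the right (n = 11) of each panel, with bars for the mean and SD and open diamonds for *Upf2*-null embryo 2 and control embryo 5. In *Aqp3*, 6 of the 8 *Upf2*-null embryos lie between 54.7 and 112 CPM, while in *Cdh1* and *Ocln* the diamond is the lowest point of each genotype.

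Of the 2 aquaporins, *Aqp3* was lower on average in *Upf2*-null embryos, while the averages of *Aqp9* were close. *Aqp3* (chromosome 4, 41092722 to 41098183 on GRCm38) encodes an aquaglyceroporin, which passes glycerol as well as water. It had 54.7, 88.4 and 260 CPM in the lowest, median and highest *Upf2*-null embryo, against 100.1, 217 and 295 CPM in controls. In *Upf2*-null embryos 1 and 3 it reached 197 and 260 CPM, as in controls, and in the other 6 it was at or below 112 CPM. The groups overlapped, with 5 of the 8 *Upf2*-null embryos below every control and 3 of the 11 controls above every *Upf2*-null embryo. *Aqp3* averaged 115 ± 74.4 CPM over 8 *Upf2*-null embryos, against 209 ± 64.2 CPM over 11 controls (SD), and the log2 fold change was -0.86 ± 0.29 (SE; edgeR p = 0.00769, adjusted p = 0.262). The difference was larger without *Upf2*-null embryo 3, at -1.14 (edgeR adjusted p = 0.115). It was smaller without *Upf2*-null embryo 7 or 8, at -0.75 each time (edgeR adjusted p = 0.346 and 0.332). Over 35 other settings of the fit its adjusted p ran from 0.115 to 1.00 while its unadjusted p was under 0.05 in all 35. Within *Upf2*-null embryos the coefficient of variation was 64.4%, against 30.7% in controls.

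*Aqp9* (chromosome 9, 71110659 to 71168682) encodes a related channel that also passes urea and other small solutes. It had 129, 182 and 246 CPM in the lowest, median and highest *Upf2*-null embryo, against 102, 175 and 323 CPM in controls. The *Upf2*-null embryos lay inside the control range, with only 3 of 8 below the control median. The averages were 191 ± 43.2 CPM over 8 *Upf2*-null embryos, against 198 ± 68.6 CPM over 11 controls (SD), and the log2 fold change was -0.05 ± 0.19 (SE; edgeR adjusted p = 0.973), with a sign that changed between settings. Without *Upf2*-null embryo 8, or without control 2, 4 or 11, it was between 0.0050 and 0.045. Whether *Aqp3* and *Aqp9* differed from each other in their response was not tested.

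*Atp1b1* (chromosome 1, 164437109 to 164458355) was the only one of the 9 genes with a fitted difference above 0. It had 62.2, 135 and 155 CPM in the lowest, median and highest *Upf2*-null embryo, against 36.3, 124 and 152 CPM in controls. The lowest value of each genotype belonged to *Upf2*-null embryo 2 and control embryo 5. Averages were 123 ± 30.8 CPM over 8 *Upf2*-null embryos, against 114 ± 35.5 CPM over 11 controls (SD), and the log2 fold change was 0.11 ± 0.21 (SE; edgeR adjusted p = 0.929). It was 0.21 without *Upf2*-null embryo 2, 0.012 without control embryo 5 and 0.12 without both. With the number of genes detected per embryo as a covariate it was 0.33, at an unadjusted p of 0.0417 and an adjusted p of 0.350 by edgeR (0.350 to 1.00 over the 35 settings). Exons of *Atp1b1* overlap those of 1 other gene, *Nme7*, and the use of strand in counting is not given in the sources used here, so part of its counts may belong to *Nme7*.

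The claudins, which form the paracellular seal and set which ions leak through it, all had lower averages in *Upf2*-null embryos. *Cldn7* (chromosome 11, 69964779 to 69967885) had 175, 210 and 287 CPM in the lowest, median and highest *Upf2*-null embryo, against 197, 288 and 320 CPM in controls. All 8 *Upf2*-null embryos were below the control median, and 6 of the 11 controls were above every *Upf2*-null embryo, although the ranges overlapped. It averaged 224 ± 40.5 CPM over 8 *Upf2*-null embryos, against 271 ± 37.0 CPM over 11 controls (SD), and the log2 fold change was -0.28 ± 0.10 (SE; edgeR p = 0.0152, adjusted p = 0.264). The standard error was the smallest of the 9 genes.

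*Cldn4* (chromosome 5, 134945119 to 134946934) is a gene of 1 annotated transcript whose protein is a receptor of the Clostridium perfringens enterotoxin. It had 45.5, 80.9 and 151 CPM in the lowest, median and highest *Upf2*-null embryo, against 59.6, 120 and 206 CPM in controls. The embryos with the highest values among the nulls were again 3 and 1, at 151 and 138 CPM. Averages were 89.4 ± 38.4 CPM over 8 *Upf2*-null embryos, against 125 ± 43.4 CPM over 11 controls (SD). The log2 fold change was -0.48 ± 0.25 (SE; edgeR p = 0.0706, adjusted p = 0.472). Without *Upf2*-null embryo 1 or 3 it was -0.60 or -0.63, with edgeR adjusted p of 0.316 and 0.275 (0.275 to 1.00 over the 35 settings). Leaving out *Upf2*-null embryo 2, *Upf2*-null embryo 6 or control embryo 7 gave -0.38 each time (edgeR adjusted p = 0.614, 0.655 and 0.648). Without both *Upf2*-null embryo 2 and control embryo 5 the log2 fold change was -0.41.

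*Cldn6* (chromosome 17, 23679249 to 23682446), a claudin of embryonic epithelia, had 74.9, 145 and 212 CPM in the lowest, median and highest *Upf2*-null embryo, against 55.8, 196 and 259 CPM in controls. The lowest controls were embryos 2 and 5, at 55.8 and 67.2 CPM, while the other 9 controls were at or above 162 CPM. Of the 8 *Upf2*-null embryos, 7 were below the control median. Averages were 147 ± 41.0 CPM over 8 *Upf2*-null embryos, against 178 ± 64.5 CPM over 11 controls (SD), with a log2 fold change of -0.28 ± 0.24 (SE; edgeR adjusted p = 0.777). This fold change was -0.18 without *Upf2*-null embryo 2 and -0.27 without both that embryo and control embryo 5.

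*Ocln* (chromosome 13, 100496507 to 100552718) encodes occludin, a membrane protein of the tight junction. It had 15.9, 128 and 196 CPM in the lowest, median and highest *Upf2*-null embryo, against 60.6, 172 and 279 CPM in controls. *Upf2*-null embryo 2 was the lowest with 90 counts, and the next *Upf2*-null embryo had 78.0 CPM. Averages were 127 ± 60.4 CPM over 8 *Upf2*-null embryos, against 180 ± 65.7 CPM over 11 controls (SD). The log2 fold change was -0.50 ± 0.33 (SE; edgeR p = 0.136, adjusted p = 0.617). Without *Upf2*-null embryo 2 and control embryo 5 it was -0.43, at an edgeR unadjusted p of 0.0442 and adjusted p of 0.377 (0.353 to 1.00 over the 35 settings).

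*Tjp1* (chromosome 7, 65296165 to 65527781) encodes ZO-1, the cytoplasmic scaffold that ties claudins and occludin to actin. It had 14.8, 17.9 and 33.3 CPM in the lowest, median and highest *Upf2*-null embryo, against 8.82, 22.6 and 47.5 CPM in controls. *Upf2*-null embryos all lay inside the control range. The log2 fold change was -0.18 ± 0.31 (SE; edgeR adjusted p = 0.923), from averages of 20.7 ± 6.82 CPM over 8 *Upf2*-null embryos, against 23.4 ± 11.6 CPM over 11 controls (SD). This log2 fold change was -0.31 without *Upf2*-null embryo 5 and -0.025 without control embryo 6.

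*Cdh1* (chromosome 8, 106603351 to 106670246) had 51.7, 179 and 363 CPM in the lowest, median and highest *Upf2*-null embryo, against 38.0, 220 and 424 CPM in controls. *Upf2*-null embryo 2 and control embryo 5 again held the lowest value of their genotype, and the other embryos started at 167 CPM in *Upf2*-null embryos and at 146 CPM in controls. The log2 fold change was -0.16 ± 0.32 (SE; edgeR adjusted p = 0.939), from averages of 202 ± 91.2 CPM over 8 *Upf2*-null embryos, against 225 ± 95.9 CPM over 11 controls (SD). Single embryos moved the log2 fold change, which was -0.012 without *Upf2*-null embryo 2, -0.33 without *Upf2*-null embryo 3, -0.28 without control embryo 5 and -0.025 without control embryo 1, and -0.13 without both *Upf2*-null embryo 2 and control embryo 5.

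**Figure D2:**
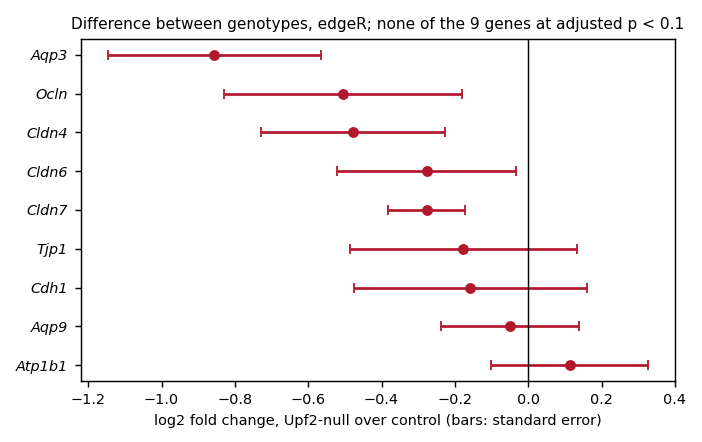
Fitted log2 fold change of each of the 9 genes, *Upf2*-null over control, with bars of 1 standard error from edgeR (8 *Upf2*-null and 11 control embryos). *Aqp3* lies farthest from 0, at -0.86, *Cldn7* has the shortest bar, and *Atp1b1* alone lies above 0.

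Set against the length of their exons, the 9 genes spanned a wide range of levels. As means over all 19 embryos, the level was 128.8 CPM per kb of exon for *Cldn7*, 95.7 for *Cldn6*, 92.8 for *Aqp3*, 60.5 for *Cldn4*, 47.1 for *Cdh1*, 47.0 for *Aqp9*, 38.2 for *Atp1b1*, 37.3 for *Ocln* and 2.85 for *Tjp1*. *Tjp1* was the lowest of the 9 in 19 of 19 embryos, and *Cldn7* the highest in 17, with *Aqp3* above it in *Upf2*-null embryo 3 and control embryo 11. Neighbours in the middle changed places, as *Cldn6* was above *Aqp3* in 10 of 19 embryos, *Cdh1* above *Aqp9* in 11 and *Atp1b1* above *Ocln* in 12. The scaffold *Tjp1* was thus far below the membrane proteins it binds on the scale of CPM per kb. The length used takes in all annotated exons of a gene, 7.81 kb for *Tjp1*. After the removal of duplicates no gene exceeded 4884 counts in a library, and any effect of that removal on these levels was not tested.

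Whether the 9 genes moved together from embryo to embryo was asked with the mean of each genotype removed, so that a difference between genotypes could not produce a correlation. Pearson's r of log2 CPM was computed for all 36 pairs over 19 embryos, with a permutation test within genotype and Benjamini-Hochberg adjustment over the 36. Of the 36 pairs, 15 passed an adjusted p of 0.05, all with positive r. An r of at least 0.5 was reached by 17 pairs (47.2%), beside 9.59% of all pairs of the 9248 genes with a mean of at least 10 CPM, and 0 pairs were at or below -0.5, beside 7.74% of all pairs. The median r was 0.47 over the 36 pairs and -0.01 over all pairs. These counts depended on 2 embryos: without *Upf2*-null embryo 2 and control embryo 5, 2 pairs passed, 10 pairs had r of at least 0.5, and the median r was 0.19. The share and median over all pairs were computed on the 19 embryos only, so this reduced set has no background beside it. Without *Upf2*-null embryo 2 alone 4 pairs passed, and 9 passed without *Upf2*-null embryo 1 or without control embryo 11.

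**Figure D3:**
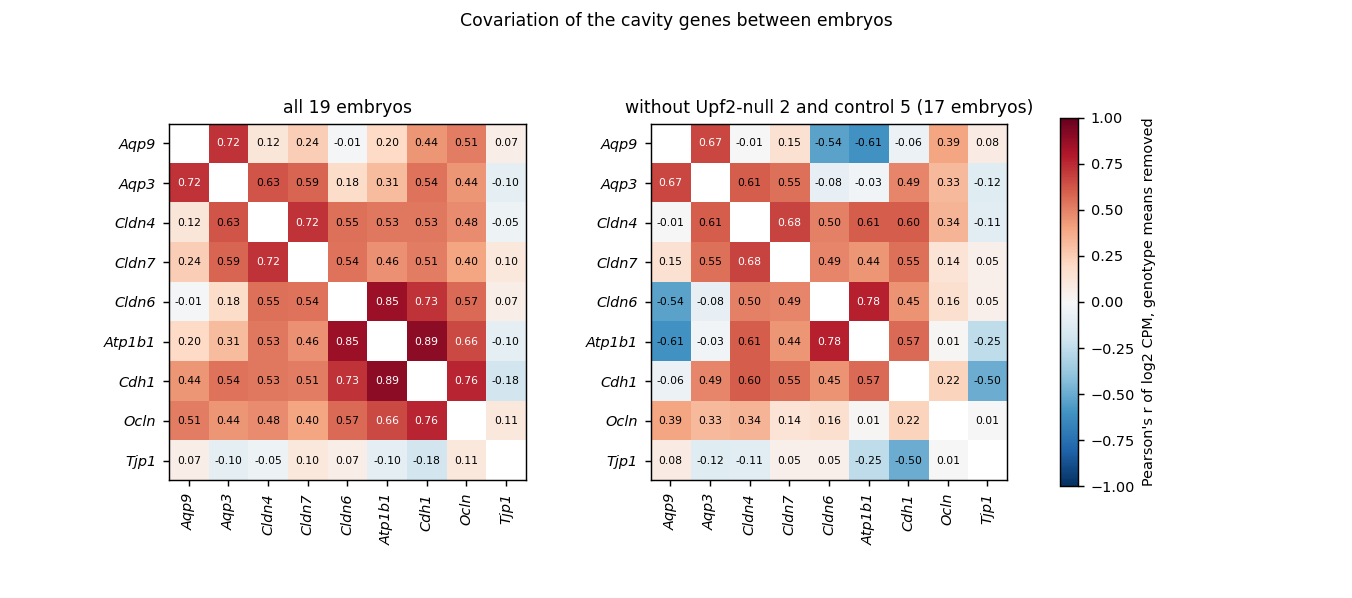
Pearson's r between each pair of the 9 genes over embryos, on log2 CPM with the genotype means removed, for all 19 embryos (left) and without *Upf2*-null embryo 2 and control embryo 5 (right, 17 embryos). *Aqp3* with *Aqp9*, *Cldn4* with *Cldn7* and *Cldn6* with *Atp1b1* stay dark in both panels, at 0.67, 0.68 and 0.78 in the right one, while the row of *Ocln* is pale there.

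Over all 19 embryos, the highest values of r were those of the sodium pump subunit with E-cadherin and with *Cldn6*. *Atp1b1* and *Cdh1* had r = 0.89 (permutation p = 8e-05, adjusted p = 0.00192) and Spearman's rho = 0.69 (permutation p = 0.00188, adjusted p = 0.0169) over 19 embryos. Among the genes of at least 10 CPM, 0.119% were as close to *Atp1b1* as *Cdh1* was. The value was 0.57 both without the 2 embryos farthest in *Atp1b1* and without *Upf2*-null embryo 2 and control embryo 5. *Atp1b1* and *Cldn6* had r = 0.85 (permutation p = 0.00015, adjusted p = 0.00192) and rho = 0.80 (permutation p = 0.00017, adjusted p = 0.00612), and r remained at 0.78 in either case. It was 0.89 in the *Upf2*-null embryos alone and 0.85 in the controls alone. *Cldn6* and *Cdh1* had r = 0.73 (permutation p = 0.00194, adjusted p = 0.0135) and rho = 0.58 (permutation p = 0.0112, adjusted p = 0.0403), with 0.66 without the farthest 2 embryos in *Cldn6* and 0.45 without *Upf2*-null embryo 2 and control embryo 5.

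The aquaporins formed another close pair. *Aqp3* and *Aqp9* had r = 0.72 (permutation p = 0.00016, adjusted p = 0.00192) and rho = 0.75 (permutation p = 0.00035, adjusted p = 0.0063) over 19 embryos. The value was 0.75 without the 2 embryos farthest in *Aqp3* and 0.67 without *Upf2*-null embryo 2 and control embryo 5. In the *Upf2*-null embryos alone r was 0.90, and in the controls alone it was 0.70. *Upf2*-null embryos 3 and 1 were highest in both genes and *Upf2*-null embryo 8 lowest in both, and among controls embryos 4 and 11 were the highest in both. *Aqp9* had r of -0.01 with *Cldn6* and 0.20 with *Atp1b1* over all embryos, and -0.54 and -0.61 without *Upf2*-null embryo 2 and control embryo 5.

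*Cldn4*, *Cldn7* and *Aqp3* also varied together, but were not a set apart from *Atp1b1* and *Cdh1*. *Cldn4* and *Cldn7* had r = 0.72 (permutation p = 0.00102, adjusted p = 0.00918) and rho = 0.64 (permutation p = 0.00512, adjusted p = 0.0369), with 0.60 without the 2 embryos farthest in *Cldn4* and 0.68 without *Upf2*-null embryo 2 and control embryo 5. *Aqp3* and *Cldn4* had r = 0.63 (permutation p = 0.00621, adjusted p = 0.0279) and rho = 0.61 (permutation p = 0.0077, adjusted p = 0.0396), with 0.46 and 0.61 in the same reduced sets, the first for *Aqp3*. *Aqp3* and *Cldn7* had r = 0.59 (permutation p = 0.0143, adjusted p = 0.0368) and rho = 0.63 (permutation p = 0.00701, adjusted p = 0.0396), with 0.43 and 0.55. These 3 pairs changed little when *Upf2*-null embryo 2 and control embryo 5 were left out. *Atp1b1* and *Cldn4* also passed, with r = 0.53 (permutation p = 0.0197, adjusted p = 0.0473) and rho = 0.71 (permutation p = 0.00103, adjusted p = 0.0124). Without *Upf2*-null embryo 2 and control embryo 5, *Cldn4* had r of 0.61 with *Atp1b1* and 0.60 with *Cdh1*. *Cldn7* had 0.55 with *Cdh1* there.

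*Ocln* behaved otherwise. It had r = 0.76 with *Cdh1* (permutation p = 0.00225, adjusted p = 0.0135) and r = 0.66 with *Atp1b1* (permutation p = 0.00565, adjusted p = 0.0279), but the rank correlations were 0.34 (permutation p = 0.167, adjusted p = 0.317) and 0.23 (permutation p = 0.320, adjusted p = 0.510). Without *Upf2*-null embryo 2 and control embryo 5 the r values were 0.22 and 0.01, and without the 2 embryos farthest in the first gene of each pair they were 0.22 for *Cdh1* and -0.0025 for *Atp1b1*. Both relations therefore rested on those embryos. *Ocln* also passed with *Cldn6* (r = 0.57, permutation p = 0.00833, adjusted p = 0.0333), with rho = 0.06 and r = 0.16 without *Upf2*-null embryo 2 and control embryo 5. With *Aqp9* it passed too (r = 0.51, permutation p = 0.0104, adjusted p = 0.0368). There rho was 0.54 (permutation p = 0.0171, adjusted p = 0.0514), and r was 0.39 without *Upf2*-null embryo 2 and control embryo 5. *Tjp1* stood outside the pattern, with r between -0.18 and 0.11 to the other 8 genes and no pair past the threshold. Without *Upf2*-null embryo 2 and control embryo 5 its r was -0.50 with *Cdh1*, -0.25 with *Atp1b1* and between -0.12 and 0.08 with the other 6. It is the only one of the 9 that encodes a cytoplasmic scaffold and not a membrane protein, and at 47 to 201 counts it was also the gene of the fewest counts.

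**Figure D4:**
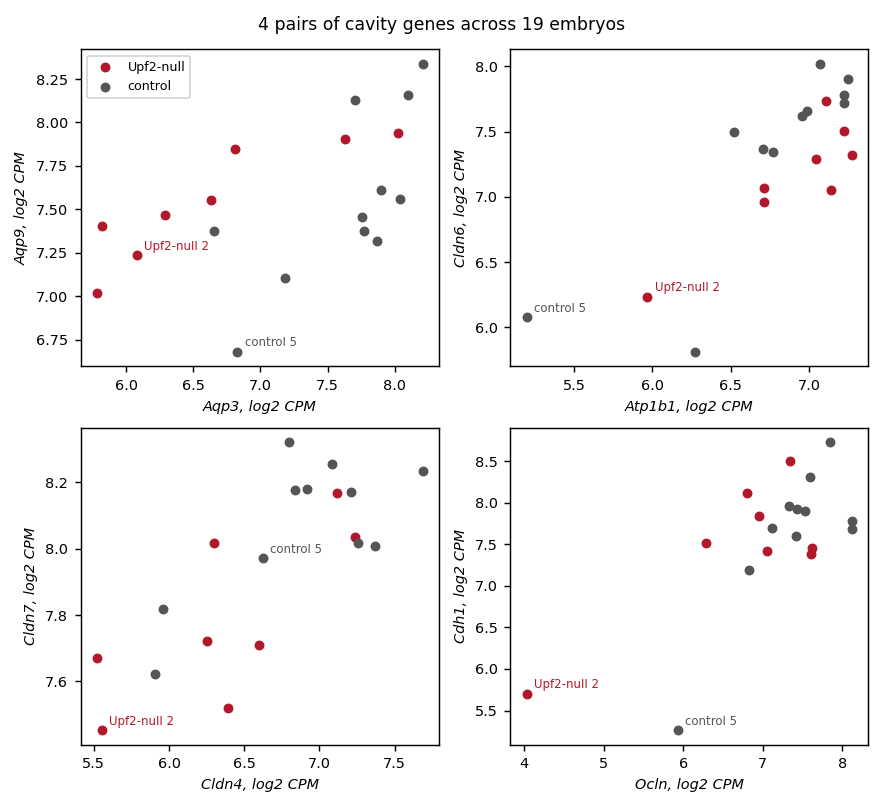
Log2 CPM of both genes of 4 pairs in each embryo (*Upf2*-null in red, n = 8; control in grey, n = 11; each axis has its own range). *Aqp3* and *Aqp9*, *Atp1b1* and *Cldn6*, and *Cldn4* and *Cldn7* rise together through the whole set of embryos, while for *Ocln* and *Cdh1* the slope comes from *Upf2*-null embryo 2 and control embryo 5.

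For each of the 9 genes the 3 most alike genes were sought among those of at least 10 CPM, by r over the same 19 embryos. *Cldn6* had *Sumf2* among its 3 closest genes (r = 0.89). *Cdh1* was closest to *P4hb*, a protein disulfide isomerase of the endoplasmic reticulum (0.95), and *Man2b1*, a lysosomal mannosidase (0.93). *Mia3*, whose product loads large cargo at endoplasmic reticulum exit sites, was among the 3 closest genes of both *Cdh1* (0.93) and *Atp1b1* (0.91). *Ocln* was closest to *Gpr107* (0.98), *Serpine2*, a secreted protease inhibitor (0.93), and *Tmtc4* (0.93). Some of these genes fell low in single embryos. The lowest value was 0.18 CPM for *Tmtc4* among *Upf2*-null embryos, and 0.44 CPM for *Man2b1* and 6.63 CPM for *Mia3* among controls. *Aqp3* was closest to *Ptdss2*, a phosphatidylserine synthase (0.88), *Cln8* (0.87) and *Tmc6* (0.84), and *Aqp9* to *Azin1*, the antizyme inhibitor (0.92), *Wdr45b* (0.88) and the kinase gene *Sgk3* (0.88). *Cldn7* was closest to *Spint2*, an inhibitor of serine proteases at the epithelial surface (0.87), and *Cldn4* to *Clcn7*, a lysosomal chloride transporter (0.83). *Tjp1* was closest to a gene without a symbol (0.81) and to *Wdr82* (0.77).

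Since several of these encode proteins of the endoplasmic reticulum, a list of 24 genes for its folding, translocation and glycosylation machinery was set beside 20 genes of cytosolic enzymes, cytoskeleton and chaperones. Both lists were chosen after seeing these values, and their levels were not tested. In *Upf2*-null embryo 2 the endoplasmic reticulum list was at -1.09 log2 units from the mean embryo, with 24 of 24 genes below the median embryo, and in control embryo 5 it was at -0.53, with 22 of 24 genes below. The cytosolic list was at -0.12 in *Upf2*-null embryo 2, with 13 of 20 genes below the median embryo. In control embryo 5 it was at 0.16, with 5 of 20 below. In the other 17 embryos the endoplasmic reticulum list was between -0.16 and 0.32. The r of each gene with the endoplasmic reticulum list was 0.87 for *Cdh1*, 0.84 for *Ocln*, 0.76 for *Atp1b1*, 0.60 for *Cldn6*, 0.58 for *Cldn4*, 0.52 for *Aqp3*, 0.46 for *Cldn7*, 0.35 for *Aqp9* and -0.06 for *Tjp1*. Without both embryos it was 0.71 for *Cdh1*, 0.61 for *Cldn4* and 0.53 for *Aqp3*, and at or below 0.40 for the other 6. With the list regressed out of each gene, 4 of the 36 pairs passed and the median r was 0.14. The part of this difference between embryos in the covariation was not tested further.

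**Figure D5:**
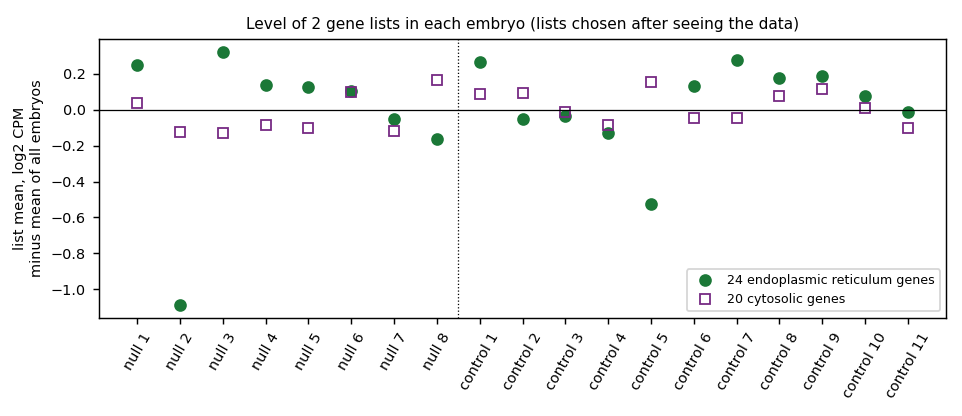
Mean log2 CPM of 24 endoplasmic reticulum genes (filled circles) and 20 cytosolic genes (open squares) in each embryo, as the difference from the mean of all embryos, with *Upf2*-null embryos left of the dotted line. *Upf2*-null embryo 2 (-1.09) and control embryo 5 (-0.53) are the lowest in the endoplasmic reticulum list, and are at -0.12 and 0.16 in the cytosolic list. Both lists were chosen after seeing the data.

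The 9 genes were also compared with the total count, the number of genes detected and the mean level of trophectoderm and epiblast markers in each embryo, as 36 relations over 19 embryos with the genotype means removed. *Aqp9* ran against the trophectoderm list of 16 genes (r = -0.77, permutation p = 0.00055, adjusted p = 0.0198; rho = -0.66, permutation p = 0.00379, adjusted p = 0.136; r = -0.62 without the 2 farthest embryos). Control embryos 4, 11 and 2 had list means of 4.30, 4.69 and 4.72 log2 CPM, against 5.79 to 6.36 in the other controls. The same embryos were the highest controls in *Aqp9*, at 323, 285 and 279 CPM. The relation without all of them was not computed. The number of genes detected went with *Atp1b1* (r = 0.81, permutation p = 0.00163, adjusted p = 0.0263; rho = 0.56, permutation p = 0.0131, adjusted p = 0.192), with *Cdh1* (r = 0.79, permutation p = 0.00219, adjusted p = 0.0263; rho = 0.41, permutation p = 0.0902, adjusted p = 0.351) and with *Ocln* (r = 0.60, permutation p = 0.00384, adjusted p = 0.0346; rho = 0.31, permutation p = 0.212, adjusted p = 0.538). Without the 2 farthest embryos these 3 values of r were 0.32, 0.24 and 0.08, so they rested on those embryos. The other 32 relations did not pass, among them all those of *Aqp3*, *Cldn4*, *Cldn6*, *Cldn7* and *Tjp1*.

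The rest of the machinery was read from lists of related genes in the same edgeR fit. The median log2 fold change, beside -0.02 for all genes, was -0.10 for ion transport, 0.32 for other aquaporins, 0.05 for tight junctions, 0.09 for adherens junctions and desmosomes, and -0.27 for epithelial regulators. Of the ion transport list, 9 of 13 genes were tested, 3 with a difference above 0 and 6 below, and 0 passed. The other sodium pump beta subunit gene with high counts, *Atp1b3*, had 222 ± 29.6 CPM over 8 *Upf2*-null embryos, against 238 ± 22.0 CPM over 11 controls (SD), and the log2 fold change was -0.10 (edgeR adjusted p = 0.738). The chloride cotransporter gene *Slc12a2* had 36.4 ± 26.9 CPM over 8 *Upf2*-null embryos, against 66.8 ± 63.1 CPM over 11 controls (SD) (edgeR adjusted p = 0.666). *Scnn1a*, of the epithelial sodium channel, was the only gene of the list at an unadjusted p under 0.05 and had 1 count over all *Upf2*-null embryos and 18 over all controls. The others named in this list were *Slc9a3r1*, an adaptor of sodium-proton exchange, at 120 ± 65.5 CPM over 8 *Upf2*-null embryos, against 100.4 ± 48.2 CPM over 11 controls (SD), and *Fxyd4*, a regulator of the pump, at 16.2 ± 10.8 CPM over 8 *Upf2*-null embryos, against 16.7 ± 8.38 CPM over 11 controls (SD). Of the other aquaporins 3 of 9 were tested, *Aqp7*, *Aqp8* and *Aqp11*, each averaging at or below 10.0 CPM in both genotypes, and 0 were past the adjusted threshold or an unadjusted p of 0.05.

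Of 27 further genes of tight junctions and apical polarity, 23 were tested, 14 with a difference above 0 and 9 below, and 0 passed the adjusted threshold. At an unadjusted p under 0.05, 2 were lower. *Crb3*, which sets the apical domain, averaged 154 ± 11.9 CPM over 8 *Upf2*-null embryos, against 178 ± 27.0 CPM over 11 controls (SD) (log2 fold change -0.21, edgeR p = 0.0319, adjusted p = 0.326), with 8 of 8 *Upf2*-null embryos below the control median. *Cldn9*, the neighbour of *Cldn6* on chromosome 17, averaged 4.73 ± 4.56 CPM over 8 *Upf2*-null embryos, against 16.5 ± 16.2 CPM over 11 controls (SD) (log2 fold change -1.80, edgeR p = 0.0335, adjusted p = 0.331). *F11r*, for the junctional adhesion molecule JAM-A, was the most abundant of the list by CPM per kb and averaged 314 ± 92.5 CPM over 8 *Upf2*-null embryos, against 319 ± 70.2 CPM over 11 controls (SD). The polarity genes *Pard6a* and *Pard6b* had fitted log2 fold changes of 0.31 and 0.12 (edgeR adjusted p = 0.458 and 0.954).

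Of adherens junction and desmosome genes 17 of 18 were tested, 14 with a difference above 0 and 3 below, and 0 were past an adjusted p of 0.1 or an unadjusted p of 0.05. The catenin genes that bind E-cadherin, *Ctnnb1* and *Ctnna1*, had log2 fold changes of 0.02 and 0.02, *Epcam* had 0.09 and *Nectin2* -0.32 (edgeR adjusted p = 0.992, 0.989, 0.852 and 0.864). Of 15 tested transcription and splicing regulators of epithelia, 5 had a difference above 0 and 10 below, and 0 passed. *Ovol2*, a repressor of mesenchymal genes, averaged 26.5 ± 8.98 CPM over 8 *Upf2*-null embryos, against 41.9 ± 17.3 CPM over 11 controls (SD) (log2 fold change -0.66, edgeR p = 0.0193, adjusted p = 0.276). The only other one at that level was *Zeb1*, which is near 0 counts in both. *Elf3*, *Tfap2c*, *Klf5* and *Grhl2* had log2 fold changes of -0.18, -0.31, -0.12 and 0.05 (edgeR adjusted p = 0.698, 0.668, 0.821 and 0.980).

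Markers of the cell types in the embryo were set beside these results. Of the trophectoderm list 16 of 16 genes were tested, 14 with a difference above 0 and 2 below, and 0 passed the adjusted threshold, with *Id2* higher at an unadjusted p of 0.0495. The summed level of the list spanned 2301 to 2932 CPM in *Upf2*-null embryos, with a median of 2527, against 1090 to 2929 CPM in controls, with a median of 2392. *Krt8* and *Krt18*, the keratins of the trophectoderm, averaged 344 and 411 CPM in *Upf2*-null embryos, against 326 and 370 CPM in controls. Of the epiblast list 10 of 10 were tested, 3 above 0 and 7 below, with 4 lower at an unadjusted p under 0.05 (*Nanog*, *Fgf4*, *Klf2* and *Utf1*) and 0 past the adjusted threshold, and its sum spanned 416 to 666 CPM in *Upf2*-null embryos, against 495 to 996 CPM in controls. The lists were read with edgeR only, which called 3 lower genes among all genes, against 74 with DESeq2. With DESeq2, the authors report *Nanog* and *Fgf4* among their significantly lower genes. Of the primitive endoderm list 9 of 10 were tested, 7 above 0 and 2 below and 0 at an unadjusted p under 0.05, with a sum of 852 to 1039 CPM in *Upf2*-null embryos, against 773 to 1045 CPM in controls. Cumulus cells, which surround the oocyte, left few counts, with *Fshr* and *Cyp19a1* at 0 and *Star* at 178 counts over the *Upf2*-null embryos, against 54 over the controls. The only marker of that list with high counts, *Nr5a2*, is also expressed by embryos. The part of these markers in the differences of the 9 genes was not tested.

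The transcript models that the authors assembled from all embryos together hold no value per embryo. Models not in the reference annotation numbered 19 for *Aqp9*, 8 for *Cldn7*, 3 for *Ocln*, 2 each for *Aqp3*, *Cldn6* and *Tjp1*, 1 for *Cdh1* and 0 for *Atp1b1* and *Cldn4*. All 19 of *Aqp9*, 7 of *Cldn7* and all 3 of *Ocln* held an intron that the annotation lacks. In *Tjp1* the alternative exon of 240 bases, at 65314093 to 65314332 on chromosome 7, was included in 1 reference model and skipped in 2, and no assembled model spanned it, so the files do not show which form the embryos made.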

How the data were processed

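The authors prepared cDNA of each blastocyst with a SMARTer low-input kit and sequenced Nextera XT libraries. They used STAR 2.5.2a for alignment on GRCm38, discarded PCR duplicates, and deposited raw counts per Ensembl gene made with featureCounts. A second deposited table holds signal values scaled by the authors. Each is the raw count times 1 factor per embryo, with no division by length, and 100% of its values gave whole reads (tolerance 0.01), on which edgeR called 33 genes. The authors' merged StringTie 1.3.3b models were used by position only, and their deposited score column was not used. The use of strand in gene counting is not given in the sources used here.

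The 9 genes and all lists were chosen with earlier results of these data known. edgeR 4.0.16 (robust quasi-likelihood fit on TMM-scaled libraries, without covariates) was run on genes reaching 10 counts in 1 embryo or more, with a threshold of 0.1 on the adjusted p. Log2 CPM had a prior count of 2. Correlations used 100000 two-sided permutations of embryos within genotype, which allow a smallest p of 1e-05. Levels per kb used the union exon length of GENCODE M21, from which 40254 identifiers had a symbol. Named in the text are the 9 genes, in each list the 4 genes highest in CPM per kb and those past a threshold, and for each of the 9 the 3 genes with the highest r. Not every such gene is described, 1 of them is not reported here, and the Snail and Zeb family genes were added after their values were seen. Software was matplotlib 3.10.9, pandas 2.3.3, scipy 1.17.1, numpy 2.4.6, Python 3.11.15, limma 3.58.1, DESeq2 1.42.0 and R 4.3.3, and the scripts were tested on simulated data. Alternatives were 35 for the differences and 31 for the covariation, of which 3 and 1 were added after seeing the data: reads recovered from the scaled table, no block on the same embryos, and the endoplasmic reticulum list as a covariate or regressed out. Genotypes came from the labels. Embryos of a genotype differed by more than counting noise (chi-square per gene at least 10.5). Each library comes from its own embryo; litters and batches are not given in the sources used here.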

Additional observations from a re-analysis of the deposited data

How the results depend on the processing

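None of the 9 genes passed the adjusted threshold under any of the 35 alternatives. The number of all genes called moved from 33 to 17 with upper-quartile factors, 176 with DESeq2, 114 with limma voom, 11 at an adjusted p under 0.05, 51 with genes detected as a covariate, and to between 14 and 43 with each embryo left out, the lowest without *Upf2*-null embryo 4 or 5 (14 each), 7 (15), 6 or 8 (16 each), control 1 or 7 (18 each), 8 (19) or 3 (20). The replicate numbers do not pair embryos (same-number correlations from -0.29 to 0.16), and with the replicate block on embryos 1 to 8 edgeR called 0 genes (317 higher and 367 lower at an unadjusted p under 0.05), against 24 without the block. The block did not change any call of the 9 genes. *Aqp9* changed sign with limma voom (0.043), genes detected (0.015), without *Upf2*-null embryo 8 or control 2, 4 or 11 (0.0050 to 0.045; -0.12 to 0.045 with each embryo left out) and without controls 2 and 4 (0.12), *Atp1b1* (-0.0050) and *Tjp1* (0.10) with limma voom, and *Cdh1* with genes detected (0.15). The other 5 genes kept their sign. For these the cause was not tested.

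Against 15 of 36 pairs with all embryos, 6 of the 36 passed with total count and genes detected regressed out. Without *Upf2*-null embryo 2 and control embryo 5, 2 passed, and 0 passed in either genotype alone, where fewer embryos enter. With the endoplasmic reticulum list regressed out 4 passed, but that list was chosen after seeing the data. Leaving out each embryo gave 4 to 17. The median r was 0.32 by Spearman, 0.14 with the list regressed out and 0.19 without both embryos, and 0.40 to 0.50 with each embryo left out. At 47 to 201 counts, *Tjp1* carries the largest counting error.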
